A study of Mus musculus with 18 samples.

Results

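Rag1, Rag2 and Dntt, the lymphoid genes of V(D)J recombination, were taken by gene name from a count table of 32285 genes, and all 3 were found there and passed the filter on low counts on both days. The 18 RNA-seq libraries of the series, which concerns leukemia with rearranged NUTM1, were made from sorted CD45.2+ mouse cells whose source is given as bone marrow. The cells are labelled iLS, a term that the labels do not spell out, and all came from C57BL/6 mice. BN1 cells have the genotype CD45.2(+) BRD9-NUTM1, AFFN1 cells have CD45.2(+) AFF1-NUTM1, and control cells have CD45.2(+) alone. The control cells of day 6 are also called Mock. BRD9 is a subunit of a chromatin remodelling complex, AFF1 is a transcription elongation factor, and NUTM1 is a testis protein that recruits a histone acetyltransferase. There were 3 libraries for each genotype at each time, day 14 or day 6, and the labels give neither the starting point of these days nor how the fusions were put into the cells. The day 14 libraries have codes in their labels, 0716, 0730 and 0802, and libraries with the same code and replicate number occur in all 3 genotypes. Day 6 libraries have replicate numbers and no code.

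Rag1 and Rag2 encode the subunits of the endonuclease that cuts chromosomes beside the V, D and J segments of antigen receptor genes. RAG1 carries the catalytic centre and most of the DNA contacts, and RAG2 is the required partner, which also reads a histone mark of active promoters. Dntt encodes terminal deoxynucleotidyl transferase, which adds nucleotides without a template to the opened ends before they are joined. In B cell development both Rag genes are active while the heavy chain genes rearrange in pro-B cells, are turned down in dividing large pre-B cells and return in small pre-B cells for the light chain. Dntt is used mainly in the pro-B stage.

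Rag1 (ENSMUSG00000061311) lies on mm10 chromosome 2 at 101638282 to 101649501, on the minus strand, with 6608 exon bases. Rag2 (ENSMUSG00000032864) lies at 101624718 to 101632529 of the same chromosome, on the plus strand, with 3424 exon bases, so the ends of both genes face each other across 5753 bases. Dntt (ENSMUSG00000025014) lies on chromosome 19 at 41029275 to 41059525, on the plus strand, with 2292 exon bases. The promoters are shown because the neighbours Rag1 and Rag2 varied together across libraries while Dntt varied more and differently, as described below. Each is the RefSeq window of GRCm38.p6 from 250 bases before to 50 bases after the start annotated in RefSeq, read in the direction of the gene, at chr2:101649483-101649782 for Rag1, chr2:101624462-101624761 for Rag2 and chr19:41029025-41029324 for Dntt. For Rag1 and Rag2 that start differs by some bases from the gene coordinates above, and motif positions are counted from the RefSeq start. Capitals mark the motifs found.

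Rag1 promoter, minus strand: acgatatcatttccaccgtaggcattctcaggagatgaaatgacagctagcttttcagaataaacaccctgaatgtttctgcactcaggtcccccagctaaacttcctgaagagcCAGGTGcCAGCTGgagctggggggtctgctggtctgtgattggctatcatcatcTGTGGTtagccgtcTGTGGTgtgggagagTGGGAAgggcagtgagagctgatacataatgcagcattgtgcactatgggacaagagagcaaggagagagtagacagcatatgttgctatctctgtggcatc

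Rag2 promoter, plus strand: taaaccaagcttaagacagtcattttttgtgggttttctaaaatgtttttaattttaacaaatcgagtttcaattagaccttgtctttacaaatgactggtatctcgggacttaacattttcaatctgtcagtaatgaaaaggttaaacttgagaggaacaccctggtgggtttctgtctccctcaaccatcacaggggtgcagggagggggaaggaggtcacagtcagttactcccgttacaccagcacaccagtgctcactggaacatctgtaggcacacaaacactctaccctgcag

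Dntt promoter, plus strand: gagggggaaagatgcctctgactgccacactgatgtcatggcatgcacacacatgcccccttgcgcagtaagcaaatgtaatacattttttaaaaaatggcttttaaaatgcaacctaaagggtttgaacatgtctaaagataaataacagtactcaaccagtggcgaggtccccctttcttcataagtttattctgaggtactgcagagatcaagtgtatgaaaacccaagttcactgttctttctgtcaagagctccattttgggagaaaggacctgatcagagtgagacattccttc

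Both strands were searched for CAGCTG and CAGGTG (E-boxes), TGGGAA (Ikaros), TGTGGT (Runx), TGTTTAC (Foxo) and CCGGAA (Ets). Counted from the start, the Rag1 window held CAGGTG from -135 to -130, then CAGCTG from -128 to -123, then TGTGGT from -81 to -76 and from -67 to -62, and last TGGGAA from -52 to -47, and the Rag2 and Dntt windows held none of the 6 motifs. Among all 32851 promoter windows of the same length, the motif CAGGTG was found in 20.2%, CAGCTG in 16.3%, TGTGGT in 16.8%, TGGGAA in 25.6%, TGTTTAC in 3.65% and CCGGAA in 14.9%. The matches are a description of these letters and do not show that a factor binds there.

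Total counts per library, in units of 1000000, ranged over 17.8 to 18.4 on day 14 and over 14.2 to 17.7 on day 6. B-lineage genes were present in every group, with group means of 711 to 2811 counts per 1000000 (CPM) for Cd79a, a signalling chain of the B cell receptor, and of 986 to 1731 CPM for Igll1, a surrogate light chain. Of the defining genes of other lineages, Cd8a had no read in any library, and Cd3e and Mpo, which mark T cells and granulocyte precursors, had at most 1 and 2 reads per group. Day 14 and day 6 libraries separated along the leading principal component (52.5% of variance). In each case fewer cells with a transcript and less transcript per cell cannot be told apart in RNA from sorted cells taken in bulk.

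**Figure D1:**
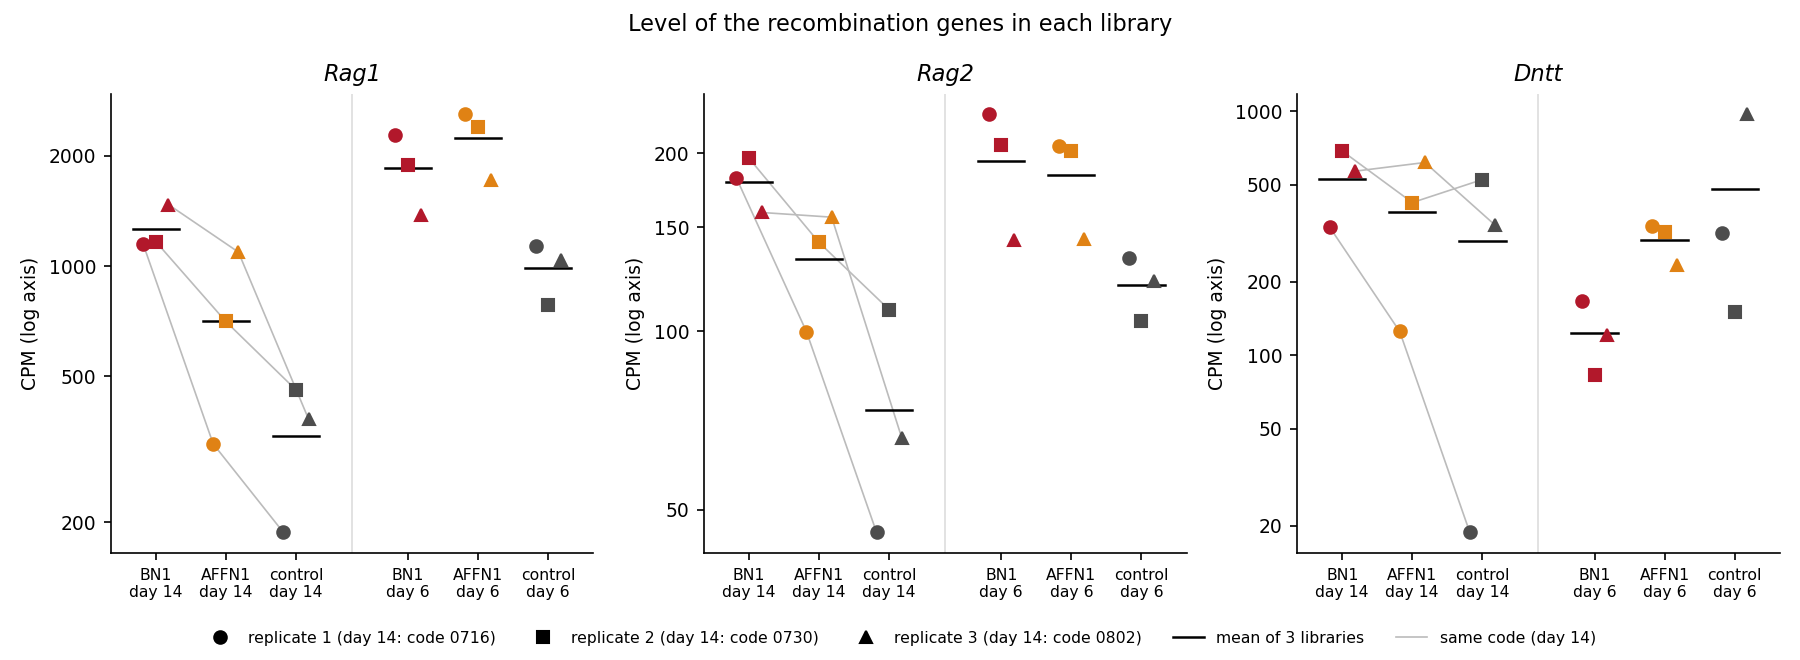
Level of Rag1, Rag2 and Dntt in each of the 18 libraries, in CPM on a log axis, by group, with the mean of 3 libraries as a bar and grey lines between day 14 libraries of the same code. Rag1 and Rag2 sat above control in both fusion groups of day 6, while Dntt spread from 18.8 to 525 CPM in control cells of day 14 and from 151 to 971 CPM in control cells of day 6.

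Levels are first given per kilobase, so that the genes can be compared. Per kilobase of exon, Rag1 averaged 279.9 ± 68.5 CPM in BN1, 339 ± 69.7 CPM in AFFN1 and 149 ± 27.4 CPM in control cells on day 6 (SD, n = 3 for this and all group means). On that scale Rag2 was lower, at 56.6 ± 13.5 CPM per kilobase in BN1, 53.6 ± 10.2 in AFFN1 and 35.0 ± 4.30 in control cells. Dntt had 54.0 ± 18.5 CPM per kilobase in BN1, 129.6 ± 24.0 in AFFN1 and 209 ± 189 in control cells. Rag1 therefore stood above Rag2 in every group of that day, whereas mean Dntt was close to Rag2 in BN1 cells, between the Rag genes in AFFN1 cells and above both in control cells. On day 14 Rag1 had 191 ± 27.5 CPM per kilobase in BN1, 107 ± 57.9 in AFFN1 and 52.0 ± 21.2 in control cells, Rag2 had 52.3 ± 5.50, 38.7 ± 8.50 and 21.5 ± 9.40 in the same groups, and Dntt had 231 ± 78.1, 169 ± 108 and 129 ± 112. By this measure Rag1 ranked between 83 and 300 of 12558 genes in each day 6 library. The lowest ranks of all 3 genes were in the 0716 control library of day 14, at 1918 for Rag1, 3704 for Rag2 and 5137 for Dntt.

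Ordered by mean CPM, Rag1 ran from AFFN1 on day 6 (2238 ± 461 CPM) through BN1 on day 6 (1849.7 ± 453), BN1 on day 14 (1263 ± 182), control on day 6 (986 ± 181) and AFFN1 on day 14 (709 ± 382) to control on day 14 (344 ± 140.2). Of the neighbours in that order, BN1 on day 14 and control on day 6 did not overlap, and each other neighbouring pair had overlapping libraries. The share of all genes without overlap was not counted for that pair. Rag2 ran from BN1 on day 6 (194 ± 46.2 CPM) through AFFN1 on day 6 (184 ± 34.9), BN1 on day 14 (179 ± 18.8), AFFN1 on day 14 (132 ± 29.1) and control on day 6 (119.7 ± 14.7) to control on day 14 (73.6 ± 32.2). For Rag2 the neighbours BN1 and AFFN1 of day 14 did not overlap, as for 16.8% of all genes, and the other neighbouring pairs did. Dntt ran from BN1 on day 14 (530.3 ± 179 CPM) through control on day 6 (479 ± 434), AFFN1 on day 14 (388 ± 248), AFFN1 on day 6 (297 ± 55.0) and control on day 14 (295 ± 256) to BN1 on day 6 (124 ± 42.5), and each neighbouring pair overlapped and differed by less than the larger SD. BN1 cells of day 6 thus had the second highest mean of Rag1, the highest of Rag2 and the lowest of Dntt.

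The spread within groups was widest for Dntt when pooled over the 6 groups. The pooled within-group SD of log2 values was 1.34 for Dntt, 0.52 for Rag1 and 0.36 for Rag2, against a median of 0.23 over 12567 genes. Dntt was thereby more variable than 99.1% of tested genes, Rag1 than 81.1% and Rag2 than 70.0%. The coefficient of variation of Dntt was highest in the control groups, at 86.8% on day 14 and 90.5% on day 6, while in AFFN1 cells of day 6 it was 18.5% for Dntt, 20.6% for Rag1 and 19.0% for Rag2.

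The fusion groups were compared with control cells within each day. On day 6 both Rag genes were higher in BN1 cells. Rag1 had 2282, 1889 and 1379 CPM in the BN1 libraries, against 1133, 783 and 1042 CPM in the control libraries. No BN1 library reached as low as a control library, as for 33.6% of all genes in either direction. The difference was 1.86-fold (log2 fold change 0.90, SE 0.22, edgeR's quasi-likelihood test with Benjamini-Hochberg adjustment over all tested genes, adjusted p = 0.0195). Rag2 had 233, 206 and 143 CPM in the BN1 libraries, against 133, 104 and 122 CPM in the control libraries, again without overlap. It was 1.61-fold higher (log2 fold change 0.68, SE 0.19, adjusted p = 0.0381). Thus 2 of the 3 genes were called at an adjusted p under 0.05 in BN1 cells, where 17.4% of the 12068 genes tested were called in either direction and 8.83% were called higher. With single libraries left out in turn, the Rag1 call held in 4 of 6 cases and the Rag2 call in 1 of 6, that without BN1 replicate 3. Without BN1 replicate 1 the adjusted p was 0.0786 for Rag1 and 0.144 for Rag2, and without control replicate 2 it was 0.0635 and 0.116, while the log2 fold changes stayed between 0.53 and 1.07 whichever library was left out.

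AFFN1 cells of day 6 had the highest mean level of Rag1 among the 6 groups, with 2594, 2403 and 1718 CPM, against 1133, 783 and 1042 CPM in control cells. The difference was 2.26-fold (log2 fold change 1.18, SE 0.22, adjusted p = 0.00675) and was called with any single library left out. It was not called in the fit on all 18 libraries (adjusted p = 0.0853), nor without all day 6 libraries numbered 1 (adjusted p = 0.0709) or 2 (adjusted p = 0.117). Over all genes these fits called 676, 289 and 401, against 1528 in the main fit. For Rag2 the AFFN1 libraries had 206, 202 and 143 CPM, against 133, 104 and 122 CPM in the control libraries. These groups did not overlap either, as for 32.3% of all genes, but the 1.53-fold difference was not called (log2 fold change 0.61, SE 0.19, adjusted p = 0.0695). With DESeq2 it was called (adjusted p = 0.0157), and likewise without AFFN1 replicate 3, the lowest of its group (adjusted p = 0.0252). In this comparison 1 of the 3 genes was called, against 12.7% of all genes in either direction and 7.79% higher. Between BN1 and AFFN1 cells of day 6 the Rag genes overlapped, with log2 fold changes of -0.28 for Rag1 (SE 0.21, adjusted p = 0.457) and 0.07 for Rag2 (SE 0.19, adjusted p = 0.862).

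Dntt did not follow the Rag genes on day 6. It had 167, 82.7 and 121 CPM in the BN1 libraries and 337, 319.5 and 234 CPM in the AFFN1 libraries, against 316, 151 and 971 CPM in the control libraries. Every BN1 library was below every AFFN1 library, and control replicate 3 stood far above all others. The log2 fold change was -1.96 in BN1 cells (SE 0.64, adjusted p = 0.0780) and -0.69 in AFFN1 cells (SE 0.62, adjusted p = 0.505), both against control, and neither was called by edgeR. DESeq2 called the difference in BN1 cells (adjusted p = 0.0242), as edgeR did without control replicate 2 (log2 fold change -2.38, adjusted p = 0.0311). Without control replicate 3 the value of AFFN1 cells turned to 0.36 (adjusted p = 0.582) and that of BN1 cells was -0.91. BN1 cells had 0.414 times the Dntt level of AFFN1 cells (log2 fold change -1.27, SE 0.63, adjusted p = 0.264). In that comparison the groups did not overlap for 35.0% of all genes, and 11.2% were called.

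**Figure D2:**
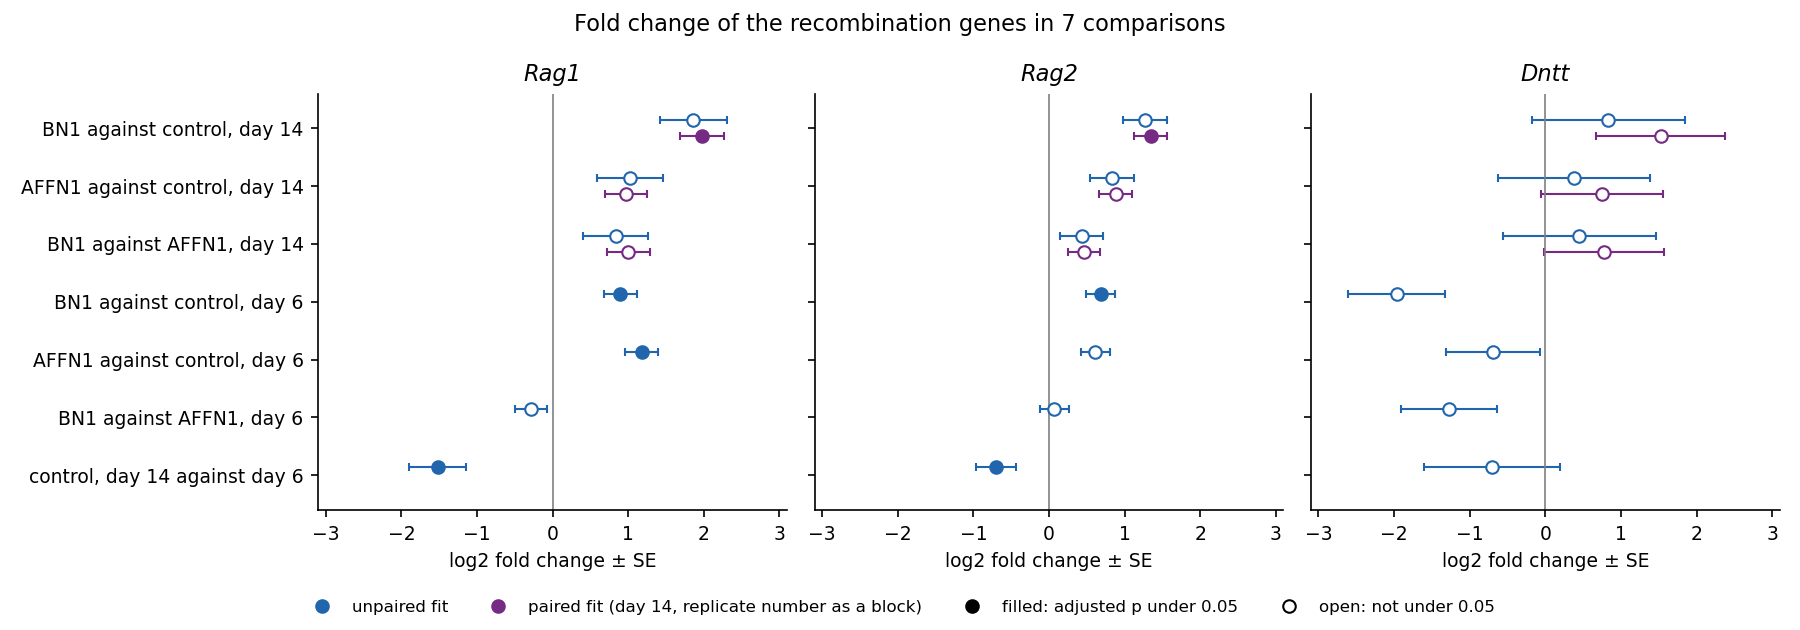
Log2 fold change with its standard error for Rag1, Rag2 and Dntt in 7 comparisons, in unpaired fits and, on day 14, in fits with the replicate number as a block; filled points have an adjusted p under 0.05. The Rag genes were on the positive side in BN1 and AFFN1 cells on both days, and Dntt was negative on day 6 and positive on day 14 without passing the test.

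On day 14 the levels in BN1 cells were higher than control for the Rag genes in each of the coded sets. Rag1 had 1149, 1167 and 1473 CPM in the BN1 libraries with the codes 0716, 0730 and 0802, against 188, 459.9 and 383 CPM in the control libraries with these codes. BN1 was 6.12-fold, 2.54-fold and 3.85-fold higher in the 3 sets. Rag2 had 182, 196 and 159 CPM in BN1 libraries, against 45.8, 109 and 66.1 CPM in control libraries, and was 3.97-fold, 1.80-fold and 2.40-fold higher. Neither gene's groups overlapped, as for 28.1% of all genes. Libraries of equal code deviated together from their group means across genes, so the fit with the replicate number as a block is given beside the unpaired one.

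In the unpaired fit neither gene passed, with a log2 fold change of 1.86 for Rag1 (SE 0.44, adjusted p = 0.114) and of 1.27 for Rag2 (SE 0.29, adjusted p = 0.109), and 0.0257% of the 11657 genes tested were called. In the paired fit Rag1 was 3.92-fold higher (log2 fold change 1.97, SE 0.29, adjusted p = 0.0137) and Rag2 2.54-fold higher (log2 fold change 1.34, SE 0.22, adjusted p = 0.0137). There 2 of the 3 genes were called, against 11.6% of all genes in either direction and 4.95% higher. DESeq2 without pairing called both as well (adjusted p = 0.000359 for Rag1 and 0.00186 for Rag2), among 646 of 11452 genes. The 0716 set had the largest ratios, and without it the paired fit gave 1.60 for Rag1 (adjusted p = 6.3e-05) and 1.02 for Rag2 (adjusted p = 0.00228), with 594 of 11709 genes called. Without the 0802 set the paired calls were lost, at 2.02 for Rag1 (adjusted p = 0.0597) and 1.41 for Rag2 (adjusted p = 0.0650), with 684 of 11657 genes called.

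AFFN1 cells of day 14 lay on average between BN1 and control cells for both Rag genes. Rag1 had 327, 706 and 1092 CPM in the AFFN1 libraries with codes 0716, 0730 and 0802, each above the control library of the same code, by 1.74-fold, 1.54-fold and 2.85-fold. Rag2 had 99.9, 141 and 156 CPM and was 2.18-fold, 1.30-fold and 2.36-fold above its control. The groups overlapped and neither gene was called against control, with paired log2 fold changes of 0.97 for Rag1 (SE 0.28, adjusted p = 0.248) and 0.88 for Rag2 (SE 0.22, adjusted p = 0.153), where 0.558% of all genes were called, against 0.0429% without pairing. Without the 0716 set the paired fit called both (adjusted p = 0.00581 for Rag1 and 0.0242 for Rag2), where 263 of 11709 genes were called. BN1 was above AFFN1 for Rag1 in each set, by 3.51-fold, 1.65-fold and 1.35-fold, and the libraries did not overlap, as for 16.8% of all genes. That difference was not called (paired log2 fold change 1.00, SE 0.28, adjusted p = 0.180), nor was that of Rag2 (0.46, SE 0.22, adjusted p = 0.320). Between these groups edgeR called none of the 11657 genes without pairing, where 992 had an unadjusted p under 0.05, and 0.18% with pairing, and DESeq2 called 91 genes.

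Dntt on day 14 had 335, 687 and 568 CPM in the BN1 libraries and 125, 423 and 617 CPM in the AFFN1 libraries, against 18.8, 525 and 342 CPM in the control libraries, in the order of the codes. The control library with code 0716 had 311 Dntt reads and was lower than any other library of the study. Within that set BN1 was 17.8-fold and AFFN1 6.66-fold above control, while in the other sets the ratios were 1.31 and 1.66 for BN1 and 0.805 and 1.81 for AFFN1. The paired log2 fold changes were 1.52 in BN1 cells (SE 0.85, adjusted p = 0.307) and 0.75 in AFFN1 cells (SE 0.81, adjusted p = 0.768), neither called. Without AFFN1 replicate 3 or without the low control library, the unpaired value of AFFN1 cells turned to -0.11 and -0.16.

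The 0716 libraries of AFFN1 and control cells also differed from the others in other genes. Ly6a, which encodes the progenitor antigen Sca-1, had 1168 CPM in that AFFN1 library and 1068 CPM in that control library, against 25.3 to 181 CPM in the other 7 libraries of day 14, among them the BN1 library of the same code at 101 CPM. On day 6 Ly6a was at 960.2 CPM or more in every library. Il7r, the receptor for the interleukin that supports early B cells, had 161 CPM in the 0716 control library and 351 and 388 CPM in the other control libraries of day 14. The part of these differences in the Dntt and Rag values was not tested.

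Rag1 was also set against Rag2 within each library, which needs no scaling between libraries. The ratio of Rag1 to Rag2 reads was 9.80, 9.15 and 9.65 in BN1 cells and 12.6, 11.9 and 12.0 in AFFN1 cells on day 6, against 8.50, 7.53 and 8.55 in control cells. The 3 groups were apart, with AFFN1 the highest and control the lowest. On day 14 it was 6.32, 5.95 and 9.27 in BN1 cells and 3.28, 5.00 and 7.00 in AFFN1 cells, against 4.11, 4.23 and 5.80 in control cells, and BN1 and control were apart. Each of these 4 separations gave a two-sided exact permutation p of 0.1, the smallest that 3 against 3 libraries allow, and 0.171 after adjustment over 12 ratio tests.

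The ratio of Dntt to Rag1 reads separated the groups of day 6. It was 0.0734, 0.0438 and 0.0877 in BN1 cells and 0.130, 0.133 and 0.136 in AFFN1 cells, against 0.279, 0.193 and 0.933 in control cells. All 3 groups were apart (exact permutation p of 0.1 for each pair, 0.171 adjusted), and no test passed. How often ratios of other genes are apart was not counted for either ratio. Single genes did not overlap for 32.3% to 35.0% of all genes in these comparisons. The AFFN1 libraries agreed closely, while the control libraries spanned more than those of any other group of day 6. On day 14 the ratios overlapped, at 0.292 to 0.589 in BN1 cells and 0.382 to 0.598 in AFFN1 cells, against 0.1 to 1.14 in control cells.

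**Figure D3:**
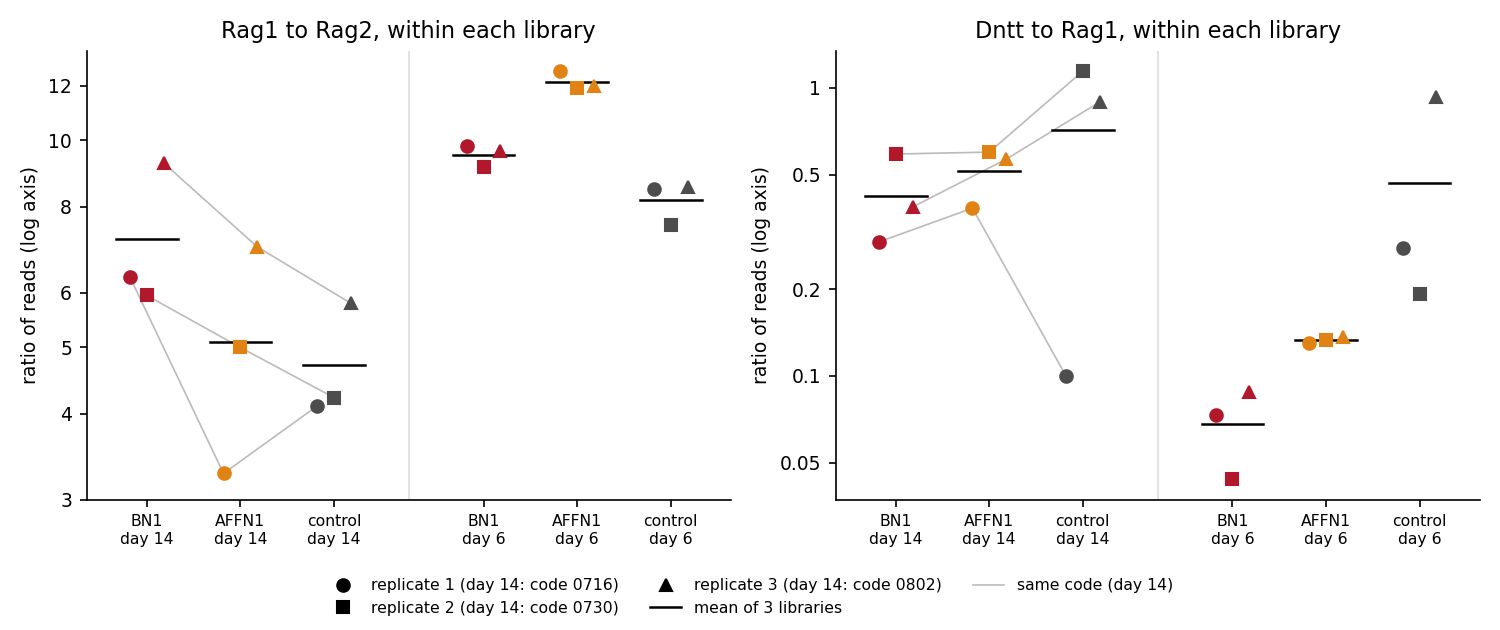
Ratio of Rag1 to Rag2 reads and of Dntt to Rag1 reads in each library, on log axes, with the group mean as a bar and grey lines between day 14 libraries of the same code. On day 6 the Rag1 to Rag2 ratio was near 12 in AFFN1 cells, between 9 and 10 in BN1 cells and below 9 in control cells.

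In control cells the levels of day 14 were set against those of day 6, although the label schemes differ between the days, so day and experiment cannot be told apart. Rag1 fell to 344 ± 140.2 CPM on day 14, against 986 ± 181 CPM on day 6 (log2 fold change -1.52, SE 0.38, adjusted p = 0.00449), without overlap, as for 51.1% of all genes. Rag2 fell to 73.6 ± 32.2 CPM on day 14, against 119.7 ± 14.7 CPM on day 6 (log2 fold change -0.70, SE 0.27, adjusted p = 0.0430). That call was lost without control replicates 1 or 3 of either day, with adjusted p up to 0.161. Dntt had a log2 fold change of -0.70 (SE 0.90, adjusted p = 0.554) and was not called. Its value was 0.34 once control replicate 3 of day 6 was left out. In this comparison 2 of the 3 genes were called, against 43.9% of all 12567 genes in either direction and 21.4% lower.

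Whether a fusion's effect differed between the days was tested directly. For Dntt the BN1 effect was positive on day 14 and negative on day 6, a difference of 2.80 on the log2 scale (SE 1.29, unadjusted p = 0.0492, adjusted p = 0.382). For Rag1 the BN1 effect differed by 0.97 (adjusted p = 0.469) and for Rag2 by 0.59 (adjusted p = 0.570). The AFFN1 effect differed by -0.14 for Rag1, 0.23 for Rag2 and 1.09 for Dntt (adjusted p of 0.906 or more). By edgeR 2.97% of all genes were called for BN1 and 1.46% for AFFN1, and the 3 genes were not among them, nor were they by DESeq2 (lowest adjusted p = 0.26, for Dntt in BN1 cells). With the replicate block, 5.16% of all genes were called for BN1, and the differences were 1.11 for Rag1 (adjusted p = 0.124), 0.70 for Rag2 (adjusted p = 0.234) and 3.29 for Dntt (adjusted p = 0.163).

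Of the transcription factors with a known role at the Rag or Dntt genes, 21 of 21 were tested. In BN1 cells of day 6, 6 were called higher and 1 lower, against 17.4% of all genes called and 8.83% called higher, with a median log2 fold change of 0.16 over the list and -0.02 over all genes. Satb1, a chromatin organiser needed for full Rag expression, rose to 192 ± 14.0 CPM in BN1 cells, against 111 ± 20.6 CPM in control cells (log2 fold change 0.77, adjusted p = 0.00528). Ikzf1, which encodes Ikaros, was higher by 0.71 (adjusted p = 0.00151), Pax5, the B-lineage commitment factor, by 0.50 (adjusted p = 0.00703), and Foxo3 by 0.38 and Ets1 by 0.34. Foxo1, an activator of both Rag genes in early B cells, had 319 ± 45.6 CPM in BN1 cells and 221 ± 32.5 CPM in control cells (log2 fold change 0.52, adjusted p = 0.0293). Id3, an inhibitor of E proteins, fell by 0.68 on the log2 scale (adjusted p = 0.0290).

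In AFFN1 cells of day 6, 5 of the 21 factors were called higher and 3 lower, against 12.7% of all genes called and 7.79% called higher, with a median of -0.01 over the list and -0.02 over all genes. Satb1 was higher by 0.89 (adjusted p = 0.00334), Gfi1, a repressor, by 0.71 (adjusted p = 0.00138) and Ikzf1 by 0.64 (adjusted p = 0.00398). Pax5 and Bcl11a were also called higher. Ikzf3, which encodes Aiolos, fell to 2.80 ± 0.518 CPM in AFFN1 cells, against 8.90 ± 5.18 CPM in control cells (log2 fold change -1.68, adjusted p = 0.0118). Lef1, a partner of beta-catenin, fell by 1.33 and Gfi1b, a repressor of Rag transcription, fell by 0.82 on the log2 scale. The value of Foxo1 was 0.41 in AFFN1 cells (adjusted p = 0.0799), which was not called.

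In BN1 cells of day 14 the paired fit called 5 of the 21 factors higher, against 4.95% of all genes, none of which passed in the unpaired fit. Satb1 was higher by 0.83 (adjusted p = 0.0148), Foxo1 by 0.73 (adjusted p = 0.0210), Lef1 by 0.72 (adjusted p = 0.0208), Tcf12, an E protein, by 0.69 (adjusted p = 0.0185) and Ikzf1 by 0.49 (adjusted p = 0.0306). The list's median was 0.37, against -0.00092 over all genes. Satb1, Foxo1 and Ikzf1 were thus called higher in BN1 cells on both days. In control cells 10 of the 21 factors were called higher on day 14 than on day 6, against 22.4% of all genes, among them Ikzf3 by 2.63, Gfi1b by 1.72 and Lef1 by 1.18, while Rag1 and Rag2 were lower.

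**Figure D4:**
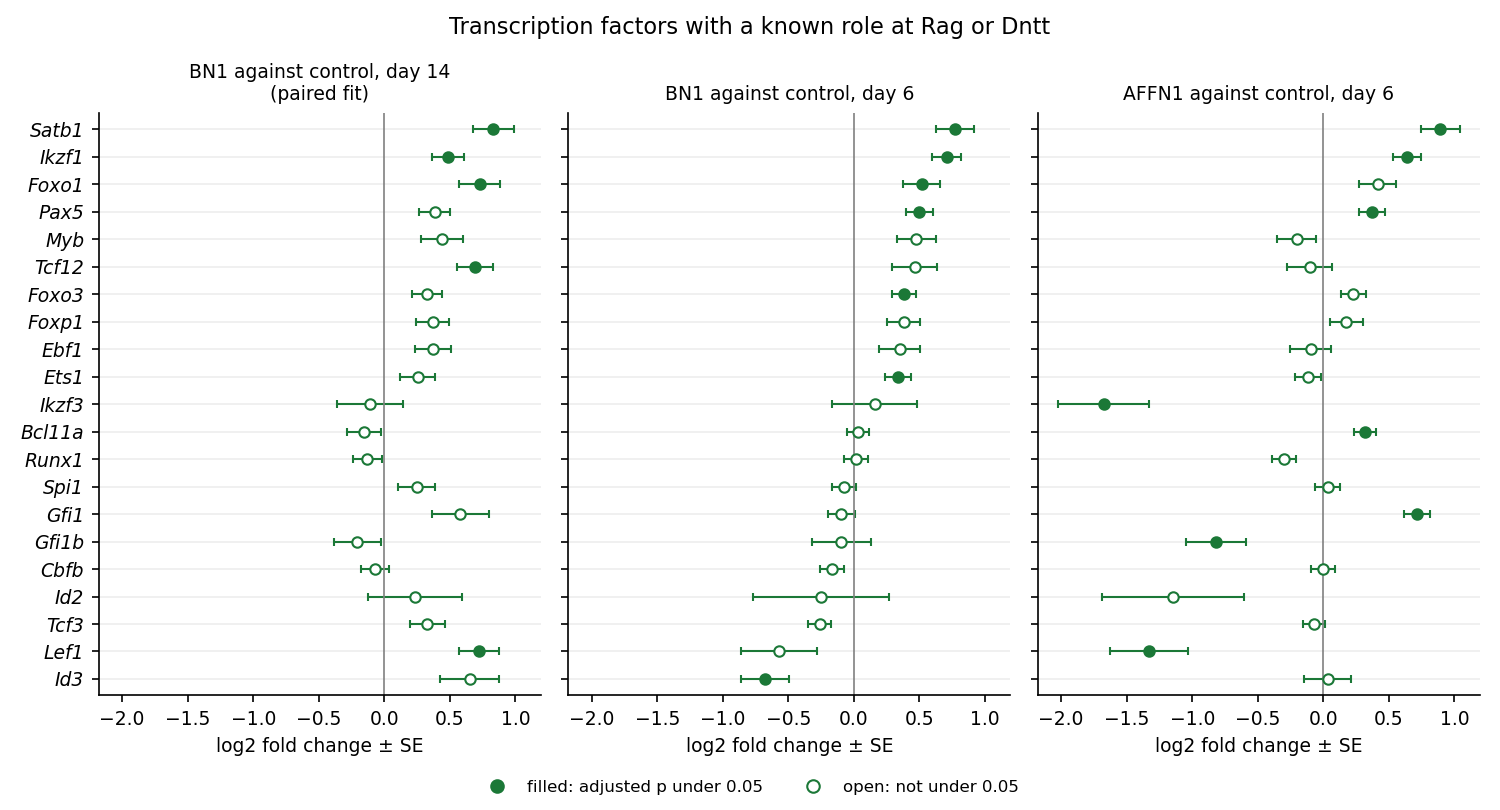
Log2 fold change with its standard error of 21 transcription factors with a known role at Rag or Dntt, in BN1 cells of day 14 (paired fit), BN1 cells of day 6 and AFFN1 cells of day 6, each against control. Filled points have an adjusted p under 0.05, and Satb1 and Ikzf1 are filled in all 3 panels.

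The genes that act after cleavage were called about as often as all genes on day 6. Of 18 end joining and break response genes, all tested, BN1 cells of day 6 had 2 called higher and 1 lower, and AFFN1 cells had 2 called lower, against 17.4% of all genes called for BN1 and 12.7% for AFFN1, and the list's medians were 0.09 in both. The genes of the Ku subunits, which hold broken ends, went opposite ways in BN1 cells. Xrcc6 had 446 ± 31.9 CPM in BN1 cells and 299 ± 69.0 CPM in control cells (log2 fold change 0.56, adjusted p = 0.0488), and Xrcc5 fell to 23.7 ± 1.10 CPM in BN1 cells, against 36.8 ± 6.47 CPM in control cells (log2 fold change -0.64, adjusted p = 0.00923). Xrcc5 was also lower in AFFN1 cells of day 6 (log2 fold change -0.87, adjusted p = 0.00245), as was Nbn of the complex that senses breaks (-0.34, adjusted p = 0.0420). In BN1 cells of day 14 the paired fit called Xrcc6 higher by 0.62 and Nbn lower, at -0.57. That fit called 11.6% of all genes in either direction, and the unpaired fit 0.0257%. In control cells Dclre1c, which encodes the hairpin-opening nuclease Artemis, was lower on day 14 than on day 6 (log2 fold change -1.08, adjusted p = 0.00103).

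Of 7 cofactor and turnover genes of the RAG proteins, Hmgb1, which encodes a DNA-bending cofactor of cleavage, fell in both fusion groups of day 6. It had 1368 ± 77.9 CPM in BN1 cells and 1279.7 ± 21.1 CPM in AFFN1 cells, against 1701 ± 211 CPM in control cells (log2 fold changes of -0.33 and -0.42, adjusted p = 0.0466 and 0.0214). The other 6 were not called, where 17.4% of all genes were called for BN1 and 12.7% for AFFN1. With the replicate block the Hmgb1 call was lost in BN1 cells (edgeR adjusted p = 0.0770) and held in AFFN1 cells (0.0429). Of the other polymerases of the family of Dntt, Polm had 0.625 ± 0.343 CPM in BN1 cells and 0.630 ± 0.0935 CPM in AFFN1 cells, against 0.258 ± 0.277 CPM in control cells on day 6 (adjusted p = 0.288 and 0.316). Poll was at 0.06 in BN1 cells (adjusted p = 0.645) and 0.28 in AFFN1 cells (adjusted p = 0.0531) on the log2 scale of day 6, and Polb at -0.07 and 0.12.

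Genes that mark stages of B cell development were counted next. Of 12 pro-B and pre-B genes, BN1 cells of day 6 had 2 called higher, Cd93 (log2 fold change 0.80, adjusted p = 0.0168) and Vpreb2 (0.45, adjusted p = 0.0488), against 8.83% of all genes called higher, and the list's median was -0.01. AFFN1 cells had the same genes called higher, against 7.79% of all genes, and 2 called lower, Vpreb3 (-1.11, adjusted p = 0.0201) and Igll1 (-0.44, adjusted p = 0.0160). In BN1 cells of day 14 the paired fit called 3 higher, Il7r by 0.91, Blnk by 0.76 and Bst1 by 0.51. That fit called 4.95% of all genes higher, while the unpaired fit called 0.0257% of all genes in either direction. Of 8 progenitor genes, 4 were called higher in BN1 and 5 in AFFN1 cells of day 6, against 8.83% and 7.79% of all genes. Called in both were Hoxa9 (log2 fold changes of 5.66 in BN1 and 5.88 in AFFN1 cells), Meis1 (2.46 and 2.71), Ly6d (2.03 and 1.43) and Flt3 (1.21 and 1.84). Ly6a was called higher in AFFN1 cells (0.62) and had a value of -0.01 in BN1 cells, and Kit had values of -0.43 in BN1 and -0.09 in AFFN1 cells, neither called. Flt3, a receptor of lymphoid progenitors, had 76.3 ± 11.0 CPM in BN1 cells and 118 ± 23.7 CPM in AFFN1 cells, against 32.7 ± 3.18 CPM in control cells. In BN1 cells of day 14 the paired fit called Meis1 (2.11, edgeR adjusted p = 0.0284) and Kit (1.03, adjusted p = 0.0185) higher, against 4.95% of all genes. The other progenitor genes tested there were not called, and the unpaired fit called none of the list.

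The summed levels of markers of other lineages differed between groups and between days. The summed level of 7 dendritic genes on day 6 was 646 to 663 CPM in BN1 libraries and 616 to 749.7 CPM in AFFN1 libraries, against 331 to 461 CPM in control libraries. Ccr9, a homing receptor, made most of that difference, at 279.9 CPM in BN1 cells and 270.3 CPM in AFFN1 cells, against 34.4 CPM in control cells, while Siglech and Clec9a, which define dendritic cells, had at most 5 reads per group. The 11 T cell genes summed to 87.3 to 107 CPM in BN1 libraries and 90.2 to 104 CPM in AFFN1 libraries, against 67.4 to 81.4 CPM in control libraries of day 6, nearly all of it from Lck, with Cd3e at 0 or 1 read per group. Lck was called higher in BN1 and AFFN1 cells (log2 fold changes of 0.51 and 0.48). Other members went the other way, with Lat called lower in both (-1.33 and -2.09) and Thy1 called lower in BN1 cells (-2.52). Among all genes 17.4% were called for BN1 and 12.7% for AFFN1. The 9 myeloid genes ran from 49.2 to 147 CPM in BN1 libraries, from 77.0 to 86.9 CPM in AFFN1 libraries and from 57.1 to 149.95 CPM in control libraries of day 6, and the 8 stromal genes reached 76.4, 139 and 89.0 CPM. Of the myeloid genes tested on day 6, Itgam was called higher in AFFN1 cells (log2 fold change 1.02, edgeR adjusted p = 0.0119) and not in BN1 cells. Lyz2 and Csf1r were called in neither. On day 14 the myeloid genes summed to 39.0 to 67.9 CPM in BN1 libraries, against 16.6 to 36.8 CPM in control libraries, without overlap. Single genes did not overlap in 28.1% of all cases. Of these myeloid genes, Lyz2 and Itgam passed the filter on low counts on day 14 and were not called in BN1 cells (edgeR adjusted p = 0.144 and 0.0547 in the paired fit). In control cells the T cell genes summed to 232 to 279 CPM on day 14, against 67.4 to 81.4 CPM on day 6. Of the 11 genes, 5 passed the filter on low counts and were all called higher, against 22.4% of all genes. Among them was Thy1, with 49.6 CPM on day 14 and 1.89 CPM on day 6. The part of these sums in the Rag values was not tested.

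**Figure D5:**
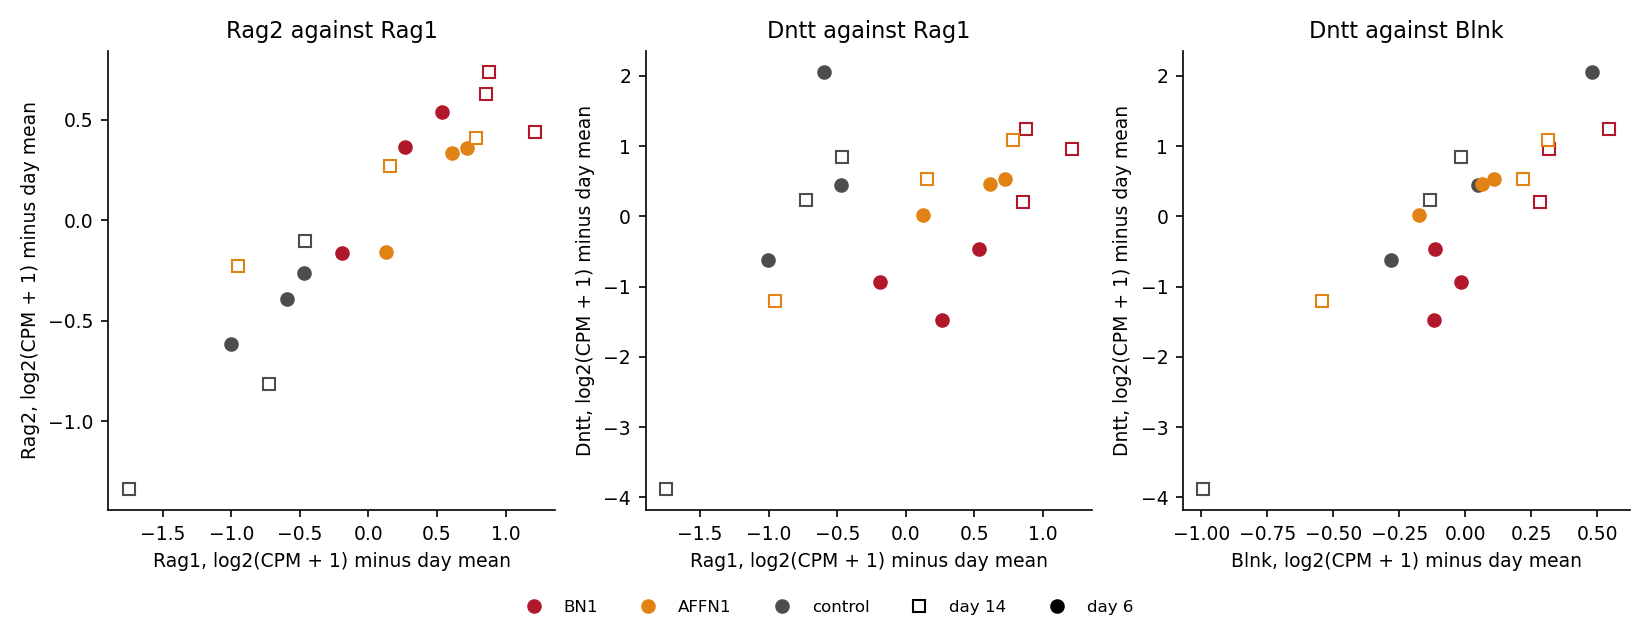
Log2(CPM + 1) minus the mean of the day for Rag2 against Rag1, Dntt against Rag1 and Dntt against Blnk, with a point for each of the 18 libraries. Rag2 rose with Rag1 over nearly the whole range, Dntt was scattered against Rag1 and lay closer to a line with Blnk, and the control library at the lower left of each panel is the 0716 library of day 14.

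Across the 18 libraries, centred within each day so that the days themselves do not count, Rag1 and Rag2 varied together, with a Pearson r of 0.93. These correlations describe libraries that share groups and, on day 14, codes. Among 10123 genes compared, Rag2 was the fifth most like Rag1, after Senp7, Usp3, Trp53inp1 and Sesn3 (r of 0.94 each). Rag1 was the third most like Rag2, after Trp53inp1 (0.96), a p53-induced nuclear protein, and Ccng2 (0.93), an atypical cyclin, and before Spata13 and Itga4 (0.92 each). Dntt was in place 1545 for Rag1 and 1745 for Rag2, with r of 0.55 and 0.51. Without centring, Rag2 was in place 36 and Dntt in place 3224 for Rag1, and Rag1 was in place 4 for Rag2 (r of 0.91).

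The genes most like Dntt were others. Diras2, a small GTPase (r of 0.92), Pecam1, an adhesion receptor (0.92), and Blnk, an adaptor of the pre-B cell receptor (0.90), came first, then Atg101 and Plekho1 (0.89 each). Without centring, Diras2 and Pecam1 were again among the first 5, and Blnk was not. Blnk also lies beside Dntt on chromosome 19, at 40928927 to 40994535, 34740 bases away. The control library with code 0716 had the lowest Blnk level of its day, at 449 CPM against 885 and 817 CPM in the other control libraries, and the day 6 control library with 971 CPM of Dntt had the highest Blnk level of its day, at 560.5 CPM. On the other side, Opalin had no read in any library.

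At the Rag locus no neighbour named here was called higher in a fusion group on day 6. Traf6, a signalling ligase 28928 bases from Rag1, was not called on day 6 and was higher by 0.48 in BN1 cells of day 14 in the paired fit (adjusted p = 0.0222). Prr5l, which lies beyond it, fell on day 6 to 0.326 ± 0.0918 CPM in BN1 cells and 1.01 ± 0.253 CPM in AFFN1 cells, against 5.07 ± 2.34 CPM in control cells (log2 fold changes of -3.94 and -2.34, adjusted p = 0.000202 and 0.00319). B230118H07Rik spans the locus on the minus strand and shares 80 exon bases with Rag1 on the same strand and 208 with Rag2 on the opposite strand. It had group means of 4.36 to 8.39 CPM and was not called in any comparison of a fusion with control.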

How the data were processed

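RNA-seq was made from sorted cells with column-purified RNA and a stranded poly(A) library kit, per the labels' protocols. The deposited values are expected counts per gene, estimated by the authors. STAR, RSEM, DESeq2 and mm10 are named in the submitters' processing notes, and the sources used here give no version, annotation or strand setting. Between 1.74% and 2.12% of values per library were not whole, and all were rounded. Of 32285 genes, 99.6% were found in the annotation used for coordinates and exon lengths (GENCODE M21, mm10). The number of columns of no sample was 0.

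Counts were fitted with edgeR 4.0.16 in R 4.3.3 (filterByExpr, TMM scaling, robust quasi-likelihood test), over the 9 libraries of a day within days and over all 18 libraries between days, with Benjamini-Hochberg adjustment over all tested genes and a threshold of 0.05. DESeq2 1.42.0, other scalings, no filter, a fit on all libraries, a replicate block and left-out libraries were alternatives. CPM are TMM-scaled over the 18 libraries. Library ratios add 0.5 to each count and were compared by exact permutation tests. The fits were tested on simulated data.

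Libraries of day 14 with the same number share a code in the labels. Their deviations from the group means correlated for all 9 pairs (r of 0.261 to 0.599), so the numbers were taken to pair them. The 18 pairs of other numbers had r of -0.474 to 0.0325. That range is no separate support, because deviations cancel within a group and high values for some pairs force low ones for others. Nothing says that libraries came from separate cultures or animals, so the p-values reflect how these samples varied, a spread that may be technical.

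The members and the 12 gene lists were chosen with earlier results of these data known. Genes named were the members, for each the 5 genes most like it, their 2 nearest neighbours on either side, and up to 4 called genes of a list in each comparison. Library values of Ly6a, Il7r and Blnk, the uncalled polymerases and genes named beyond that rule were chosen after their values were seen.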

Additional observations from a re-analysis of the deposited data

How the results depend on the processing

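The log2 fold changes of Rag1 and Rag2 in BN1 cells stayed positive on both days under the alternatives run, while their calls did not all hold. Leaving out all libraries of a number was added after seeing the data, except for number 1 of day 14 without the block. Leaving out all day 6 libraries numbered 1 or 2 gave 0.83 and 0.76 for Rag1 and 0.61 and 0.56 for Rag2 in BN1 cells, and 1.17 and 0.99 for Rag1 in AFFN1 cells, none called. Calls over all genes fell there too, to 473 and 879 for BN1 and to 289 and 401 for AFFN1, from 2095 and 1528. Leaving out the day 6 libraries numbered 3 gave 0.77 for Rag2 in AFFN1 cells, now called among 3873 genes, and 0.49 for Dntt, reversed. Fitting all 18 libraries gave 0.91 for Rag1 and 0.70 for Rag2 in BN1 cells and 1.18 for Rag1 in AFFN1 cells of day 6, not called, and 1.88 and 1.28 for Rag1 and Rag2 in BN1 cells of day 14, called. With no filter on low counts, Rag2 was at 0.70 in BN1 cells of day 6 and at -0.69 between the days in control cells, not called. DESeq2 called Dntt (-1.96) in BN1 and Rag2 (0.61) in AFFN1 cells of day 6, and Rag1 (1.88) and Rag2 (1.28) in BN1 cells of day 14. The replicate block called Rag2 (0.59) in AFFN1 cells of day 6, and Rag1 (1.97) and Rag2 (1.34) in BN1 cells of day 14. On day 6 same-numbered libraries correlated at -0.299 to 0.332, against -0.341 to 0.371 for other numbers. The same-numbered pairs of control and BN1 were all positive (0.139, 0.313 and 0.332), while those with AFFN1 had both signs. Whether the numbers pair libraries of day 6 is therefore not settled. With the block and without the libraries of day 14 numbered 1, BN1 cells gave 1.60 and 1.02 and AFFN1 cells 1.04 and 0.79 for Rag1 and Rag2, and without those numbered 2 BN1 cells gave 2.32 and 1.64, all called. Over all genes these fits called 594, 263 and 143. Between the days in control cells, Rag2 was at -0.42 and -0.61 without the day 14 libraries numbered 1 or 3, not called. The AFFN1 effect on Rag1 changed between the days by 0.12 without the day 14 libraries numbered 2, reversed.

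Leaving out single libraries of day 6 gave 0.71 to 1.07 for Rag1 (called in 4 of 6 cases), 0.53 to 0.86 for Rag2 (1 of 6) and -2.38 to -0.91 for Dntt (1 of 6) in BN1 cells, and 1.04 to 1.34 for Rag1 (6 of 6), 0.53 to 0.76 for Rag2 (1 of 6) and -1.12 to 0.36 for Dntt in AFFN1 cells. Rag2 in BN1 against AFFN1 cells of day 6 ran from -0.081 to 0.25, and Dntt in AFFN1 cells of day 14 from -0.16 to 1.10. Between the days in control cells, Rag2 ran from -1.10 to -0.45 (2 of 6) and Dntt from -1.41 to 0.34, and the change of the AFFN1 effect from -0.59 to 0.21 for Rag1 and from -0.018 to 0.63 for Rag2. The cause was not tested.

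The number of genes called also moved. In BN1, AFFN1 and BN1 against AFFN1 comparisons of day 6 it was 2095, 1528 and 1349, and 1032, 676 and 624 in the fit on all libraries. Leaving out single libraries gave 1141 (without BN1 replicate 1) to 3495 (without control replicate 3), 739 (without AFFN1 replicate 1) to 2250 (without control replicate 3), and 725 (without AFFN1 replicate 2) to 1047, and the BN1 count was also under the main one by over 1.5 times without control replicates 1 (1246) or 2 (1360), the AFFN1 count without AFFN1 replicate 2 (747) and the last without AFFN1 replicate 1 (787). The shares of all genes called on day 6 rest on these counts. On day 14 the unpaired fit called 3, 5 and 0 genes, DESeq2 646, 76 and 91 and the paired fit 1348, 65 and 21. With 3 libraries a group, the depth of 14.2 or more times 1000000 counts left at least 311 reads for each of the 3 genes in every library, so counting error was small beside the spread between libraries.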
